A study of Mus musculus with 12 samples.

Results

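The genes described here are 10 mouse regulators of apoptosis and cell survival: Bcl2a1b, Bcl2a1d, Bcl2l1, Mcl1, Bcl2, Bcl2l11, Bid, Birc2, Birc3 and Cflar. They were taken by symbol from a table of 38739 gene symbols, which lists all 10. All of them passed a filter on low values (at least 1 TPM, a length-corrected share of all transcripts, in at least 3 samples after rescaling to a common total), as did 11887 genes in all. Bcl2 was above 1 TPM before rescaling in 4 of 12 libraries, all from untreated cells, and so passed through the groups in which it was high.

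RNA was sequenced from bone marrow-derived macrophages (BMDMs), cells grown from the marrow of male C57BL/6J mice 8 weeks old. The WT mice were purchased, and the cGAS knockout (cGAS-/-) mice, on a C57BL/6J background, lacked the cytosolic DNA sensor cGAS in every cell and came from another laboratory. Cells of each genotype received media control (UT) or lipopolysaccharide (LPS), the Gram-negative outer membrane component sensed by TLR4, which gave 4 groups of 3 libraries. LPS was given at 100 ng/mL for 1 h per the labels and at 150 ng/mL for 24 h per the study's methods, and which of these holds for these libraries could not be settled. The 3 libraries of a group are called technical replicates by the study, so the p-values below measure the spread between libraries, which need not reflect the spread between mice.

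Apoptosis through mitochondria is decided within the BCL2 family. Anti-apoptotic members (BCL2, BCL-XL, MCL1 and A1) hold the pore formers BAX and BAK in check, and BH3-only proteins such as BIM and BID oppose them. Death receptors and Toll-like receptors engage a second arm, in which the cellular IAPs ubiquitinate RIPK1 and cFLIP restrains caspase-8. In macrophages, NF-κB activation by LPS is known to induce several of the survival genes, which lets the cells outlive their own inflammatory signalling.

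Both members that encode A1 belong to a cluster of near-identical copies on chromosome 9, and their values depend on how reads were divided between the copies. Bcl2a1b lies at chr9:89081262-89089889 (plus strand), Bcl2a1d at chr9:88605338-88613967 (minus strand) and another expressed copy, Bcl2a1a, at chr9:88838953-88844472 (plus strand), in GRCm39 with GENCODE annotation. The targeted gene, Cgas, is on the same chromosome, at chr9:78337802-78350535 (minus strand). Whether the WT and cGAS-/- mice differed in sequence at the A1 copies was not tested. Their canonical transcripts were 98.2% identical between Bcl2a1a and Bcl2a1b, 98.8% between Bcl2a1a and Bcl2a1d, and 99.1% between Bcl2a1b and Bcl2a1d over 819 aligned bases. The 3 open reading frames of 519 bases differed at 12 positions, 7 of them in the first 120 bases, and the longest run without a difference spanned 217 bases. Those first 120 coding bases are printed from the genome, at chr9:88839104-88839223 for Bcl2a1a, chr9:89081413-89081532 for Bcl2a1b and, read on the minus strand, chr9:88613653-88613772 for Bcl2a1d. Capitals mark the bases that differ among the copies, which are what a read must cover in this stretch to be assigned to 1 of them.
Bcl2a1a: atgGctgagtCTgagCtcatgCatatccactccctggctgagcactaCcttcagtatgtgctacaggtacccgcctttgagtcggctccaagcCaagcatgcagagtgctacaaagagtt
Bcl2a1b: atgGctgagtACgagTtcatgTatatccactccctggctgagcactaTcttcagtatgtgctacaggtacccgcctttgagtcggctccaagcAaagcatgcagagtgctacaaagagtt
Bcl2a1d: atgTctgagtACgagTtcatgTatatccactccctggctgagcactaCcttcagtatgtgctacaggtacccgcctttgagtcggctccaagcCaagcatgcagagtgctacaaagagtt

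The promoters of the copies are also alike. The 250 bases before the annotated start of each A1 member (chr9:89081012-89081261, plus strand, and chr9:88613968-88614217, minus strand) are printed with the match to the AP-1 motif TGANTCA in capitals. The match lay 100 to 94 bases before the start in Bcl2a1b and 50 to 44 bases before it in Bcl2a1d.
Bcl2a1b: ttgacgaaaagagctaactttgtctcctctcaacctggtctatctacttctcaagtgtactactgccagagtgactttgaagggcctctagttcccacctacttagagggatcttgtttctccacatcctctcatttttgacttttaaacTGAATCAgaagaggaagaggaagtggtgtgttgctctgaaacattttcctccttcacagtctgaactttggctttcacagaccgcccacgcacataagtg
Bcl2a1d: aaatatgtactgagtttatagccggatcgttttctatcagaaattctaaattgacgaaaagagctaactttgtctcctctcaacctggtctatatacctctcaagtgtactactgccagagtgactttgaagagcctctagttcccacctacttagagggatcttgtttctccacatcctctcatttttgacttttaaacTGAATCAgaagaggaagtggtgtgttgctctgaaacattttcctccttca

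On either strand, TGANTCA was found in 6.17% of 21770 promoters of that length, and among the 10 genes in these 2 copies. A forkhead motif, GTAAACA, matched 2.72% of promoters and 1 of the 10 genes, Bcl2l11. An NF-κB consensus matched 4.23% of promoters and 0 of the 10. A match describes these letters in these windows, with no overlap between the matches of different motifs, and does not show that a factor binds there.

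The labels were checked on Cgas first. It was at 1.19 to 3.25 TPM in the 6 WT libraries and at 0.0703 to 0.291 TPM in the 6 cGAS-/- libraries. Of 14 macrophage markers, 11 were listed, with a summed level of 22894 to 36154 TPM, in which Lyz2 alone stood at 15701 to 33426 TPM. The means of Cd68, Mertk, Mrc1, Cx3cr1, C1qa, C1qb and C1qc were lower with LPS in both genotypes. Those of Itgam, Fcgr1, Lyz2 and Spi1 were higher. Of 12 neutrophil markers 10 were listed, with a sum of 85.8 to 403 TPM, and 7 listed T and NK cell markers together reached at most 0.831 TPM. The libraries of the LPS-treated WT cells were uneven. WT LPS replicate 3 had a total of 709802 TPM against 447189 to 503156 in the other 11, and a single ferritin pseudogene, Fth-ps3, made up 31.7% of it against 6.24% to 17.7% elsewhere. WT LPS replicates 1 and 3 had 12787 and 12261 genes above 0, against 15378 to 17573 in the others. A gene's difference named below that changed its call or moved by over 1.5 times without replicate 3 is therefore also given without it. The values are means over a gene's transcripts, so levels are compared between samples and not between genes.

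**Figure D1:**
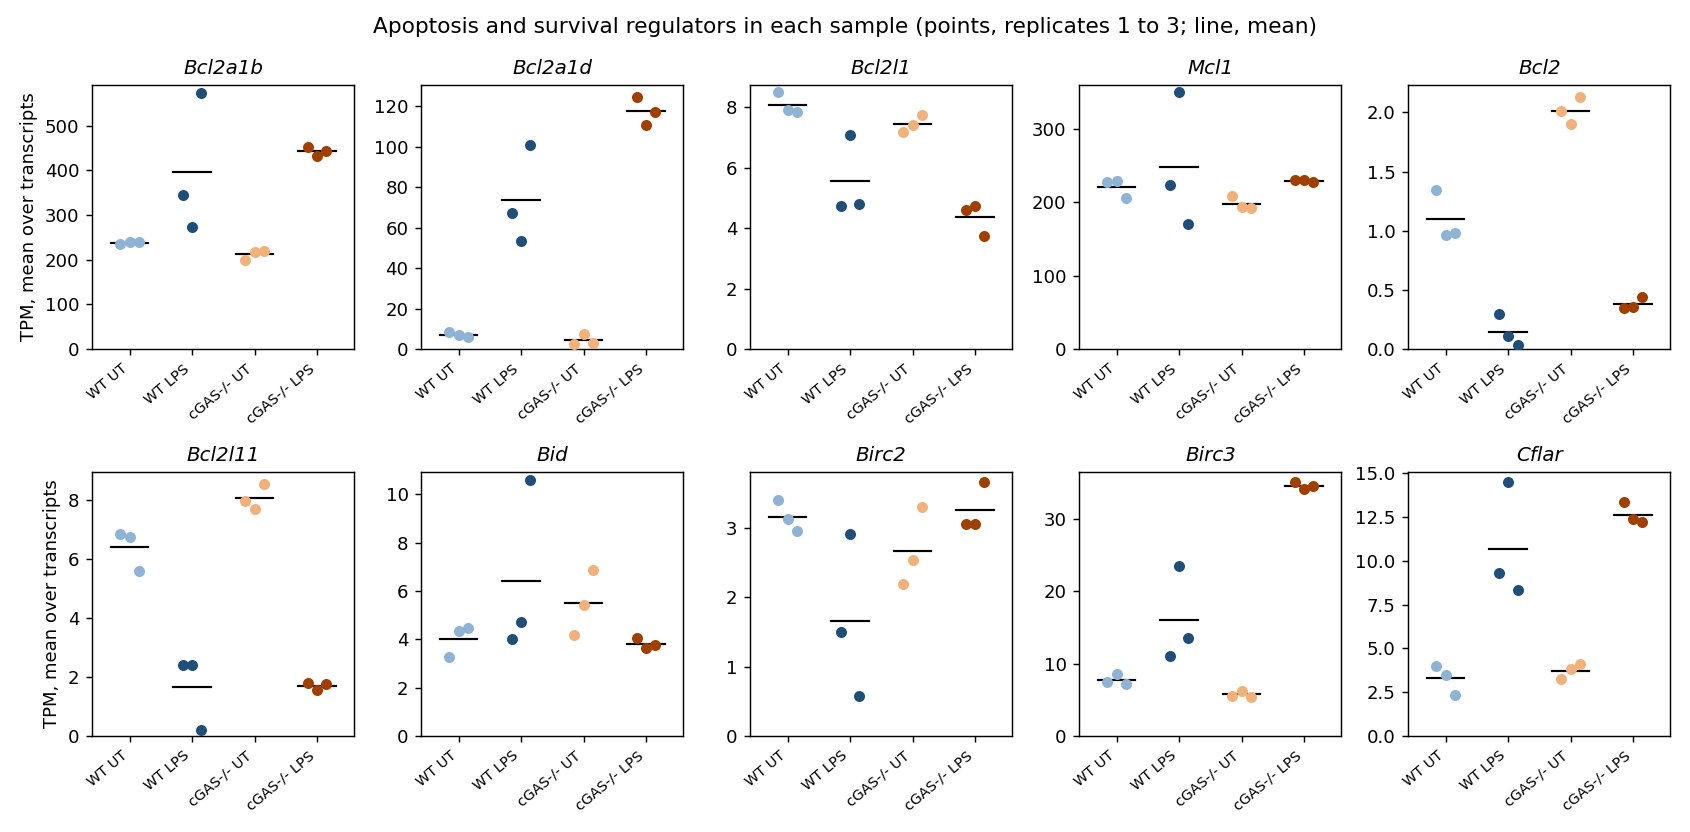
TPM (vertical axis of each panel, from 0) of the 10 genes in each library, by group. Points are replicates 1 to 3 from left to right and the line is their mean. Bcl2a1b, Bcl2a1d, Birc3 and Cflar are higher and Bcl2l1, Bcl2 and Bcl2l11 lower in all 6 LPS libraries than in all 6 UT libraries, and the WT LPS points are spread more widely than those of the other groups for most genes.

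With LPS some of the 10 genes rose and others fell. Bcl2a1d, Birc3 and Cflar rose and Bcl2 and Bcl2l11 fell in both genotypes, and Bcl2a1b rose in cGAS-/- cells. By limma over all genes, 5 of 10 were called at an adjusted p under 0.05 in WT cells (3 higher, 2 lower), where 27.6% of all genes tested were called (4.31% higher, 23.3% lower). In cGAS-/- cells 6 of 10 were called (4 higher, 2 lower), against 13.8% of all genes (4.76% higher, 9.06% lower). Bcl2, 1 of the 2 lower calls in each genotype, reached the filter's minimum in 6 UT and 0 LPS libraries, so the filter itself favoured its direction. Beyond a log2 fold change of 2, the study's second threshold, were Bcl2a1d in WT cells (4.32% of all genes) and Bcl2a1d and Birc3 in cGAS-/- cells (3.50%). LPS and UT libraries did not overlap for 8 of the 10 in WT cells (4 higher, 4 lower), against 38.2% of all genes (5.31% and 32.9%), and for 9 of the 10 in cGAS-/- cells (5 higher, 4 lower), against 55.7% (15.5% and 40.2%). The median log2 fold change of the 10 was 0.29 in WT and 0.22 in cGAS-/- cells, while that of all genes was -0.46 and -0.20. With WT LPS replicate 3 left out, 34.7% of all genes were called in WT cells (8.26% higher, 26.5% lower, median -0.29) and 30.8% in cGAS-/- cells (9.19% higher, 21.6% lower). Scaling the libraries by TMM factors moved the median of all genes to -0.14 and -0.0043. The calls among all genes then split into 827 higher and 1496 lower in WT cells, in place of 512 and 2774, and into 803 higher and 799 lower in cGAS-/- cells, in place of 566 and 1077. In a bulk sample, a fall in the share of some cells and less RNA per cell cannot be told apart.

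Of the A1 genes, Bcl2a1d rose in both genotypes. It stood at 8.35, 7.00 and 6.18 TPM in WT UT cells and at 67.1, 53.2 and 101 TPM with LPS. The cGAS-/- values went from 2.65, 7.38 and 3.05 TPM to 124, 111 and 117 TPM. Every LPS library was above every UT library, and the LPS-treated cGAS-/- libraries were all above the LPS-treated WT ones. The mean rose 10.3-fold in WT cells (log2 fold change of TPM + 1, 3.15 with SE 0.34, limma adjusted p = 9.44e-05) and 26.9-fold in cGAS-/- cells (4.57, SE 0.34, adjusted p = 7.89e-06), or 41.2-fold without cGAS-/- UT replicate 2. Without WT LPS replicate 3 the WT value was 2.90 (adjusted p = 8.09e-05). Relative to the median of all genes, the differences were 3.61 and 4.77.

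Bcl2a1b, the copy with the highest TPM, already stood at 235, 239.6 and 239.6 TPM in WT UT cells and at 199.7, 218 and 218 TPM in cGAS-/- UT cells. With LPS it was at 344, 274 and 573 TPM in WT and at 452, 433 and 442 TPM in cGAS-/- cells. No LPS library overlapped the UT libraries of its genotype. The rise passed the limma test in cGAS-/- cells (log2 fold change 1.06, SE 0.26, adjusted p = 0.0182, 2.09-fold in mean TPM), a call lost in 6 of 19 alternatives, each of which left out a cGAS-/- library. In WT cells the difference was 0.66 (SE 0.26, adjusted p = 0.0747). It passed without WT LPS replicate 3 (0.37, adjusted p = 0.0216) or replicate 2 (0.90, adjusted p = 0.00696), with TMM factors (1.26, adjusted p = 0.0413) and with sample weights (0.48, adjusted p = 0.0465).

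Bcl2a1a, the copy outside the chosen genes, went from 2.45, 1.08 and 1.23 TPM to 60.8, 50.4 and 126 TPM in WT cells, and from 0.378, 1.65 and 1.64 TPM to 123, 139 and 139.8 TPM in cGAS-/- cells. Bcl2a1c was listed at 0 in all 12 libraries. The annotation lists 4 transcripts for Bcl2a1b, 4 for Bcl2a1d and 2 for Bcl2a1a. Each of the 3 expressed copies carried values of at most 6 significant digits, as a single transcript would give. Their TPM are set side by side on that reading, which was not tested. Bcl2a1b made up 95.6% to 98.5% of their sum in UT libraries, 71.7% to 72.9% in WT LPS libraries and 63.2% to 64.7% in cGAS-/- LPS libraries. On the single-transcript reading the sum depends little on the division of reads among the 3, whose transcripts were 819, 826 and 863 bases long. It was 247 ± 0.782 TPM in WT UT, 550 ± 221 in WT LPS, 217 ± 12.9 in cGAS-/- UT and 694 ± 9.90 in cGAS-/- LPS cells (SD, n = 3 each). Treated as 1 gene, it rose with LPS in WT (log2 fold change 1.08, SE 0.26, limma adjusted p = 0.0117) and in cGAS-/- cells (1.67, SE 0.26, adjusted p = 0.00121). Without WT LPS replicate 3, the highest of the group, the mean of WT LPS was 425 ± 67.1 TPM (SD, n = 2) and the WT rise 0.77 (limma adjusted p = 3.60e-04). With only the WT libraries in the fit the WT call of the sum was lost (adjusted p = 0.155). Summing, and its alternatives, were chosen after the data were seen.

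**Figure D2:**
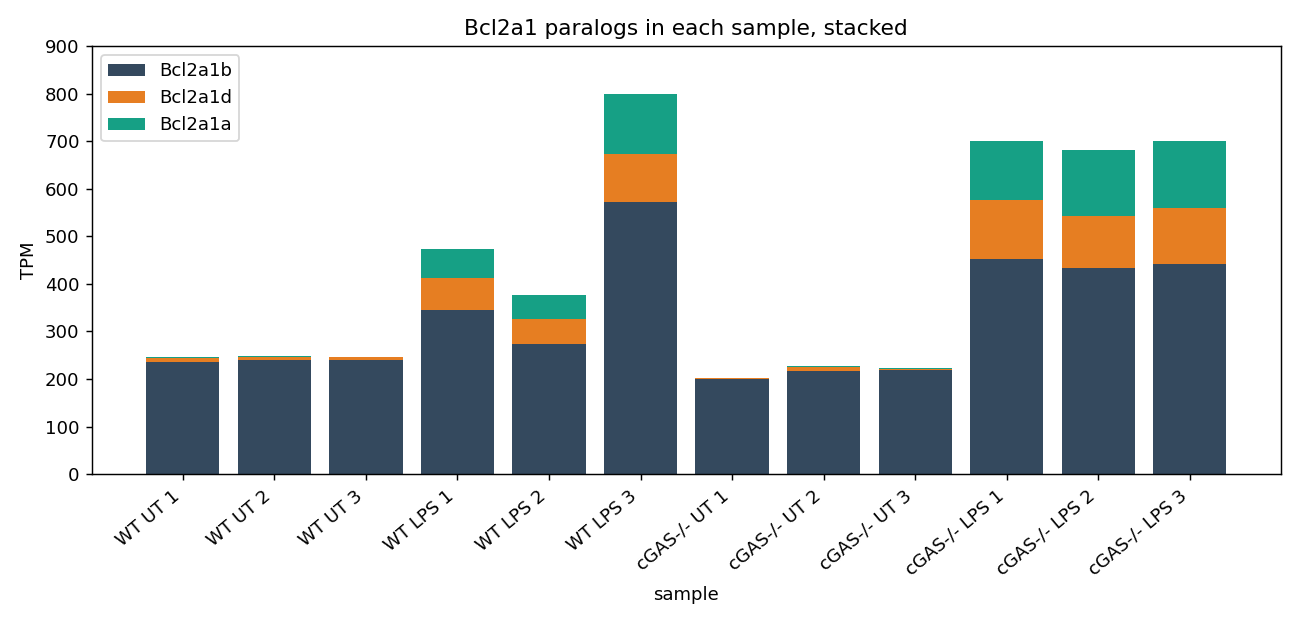
Stacked bars of TPM (vertical axis, from 0) for Bcl2a1b, Bcl2a1d and Bcl2a1a in each of the 12 libraries. Nearly the whole bar is Bcl2a1b in the UT libraries, and Bcl2a1d and Bcl2a1a appear as visible segments in the 6 LPS libraries, where WT LPS replicate 3 has the tallest bar.

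Bcl2l1, which encodes BCL-XL, stood at 8.51, 7.91 and 7.86 TPM in WT UT cells, 4.75, 7.10 and 4.81 TPM in WT LPS cells, 7.20, 7.43 and 7.75 TPM in cGAS-/- UT cells and 4.61, 4.75 and 3.76 TPM in cGAS-/- LPS cells. The LPS libraries of each genotype lay below its UT libraries. Neither difference passed the limma test (log2 fold change -0.49, SE 0.20, adjusted p = 0.0874 in WT and -0.66, SE 0.20, adjusted p = 0.0509 in cGAS-/- cells). The cGAS-/- difference passed under 6 of 18 alternatives, among them leaving out any one of the WT LPS libraries, and the WT difference passed without WT LPS replicate 2 (-0.65, adjusted p = 0.00503). With TMM factors the WT value was 0.03, of the opposite sign.

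Mcl1, which encodes a short-lived anti-apoptotic protein, stood at 227, 229 and 206 TPM in WT UT cells and 224, 351 and 169.9 TPM with LPS. Its cGAS-/- levels were 208, 194 and 193 TPM without LPS and 231, 230.1 and 227 TPM with it. WT LPS libraries lay on both sides of the UT libraries, and in cGAS-/- cells the groups did not overlap. The log2 fold changes were 0.10 (95% interval -0.46 to 0.67, limma adjusted p = 0.775) and 0.21 (-0.35 to 0.78, adjusted p = 0.694). With TMM factors both passed, at 0.70 (adjusted p = 0.0100) in WT and 0.53 (adjusted p = 0.0495) in cGAS-/- cells, and the cGAS-/- value also passed with sample weights (0.21, adjusted p = 0.0233) and with only the cGAS-/- libraries in the fit (0.21, adjusted p = 0.00761). The WT value was -0.18 without WT LPS replicate 2 and 0.34 (adjusted p = 0.121) without replicate 3.

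Bcl2 itself was low throughout and fell, having passed the filter through its UT libraries alone, which favoured that direction. It stood at 1.34, 0.966 and 0.981 TPM in WT UT cells and 0.294, 0.112 and 0.0339 TPM with LPS. Its cGAS-/- levels fell from 2.01, 1.90 and 2.13 TPM to 0.345, 0.355 and 0.436 TPM. All 6 LPS libraries were below all 6 UT libraries. The log2 fold change of TPM + 1 was -0.87 (SE 0.15, limma adjusted p = 0.00176) in WT and -1.13 (SE 0.15, adjusted p = 3.91e-04) in cGAS-/- cells, and -0.80 (adjusted p = 0.00163) in WT cells without LPS replicate 3. The added 1 compresses changes at these levels. The mean fell to 0.134 and 0.188 times the UT mean, the WT ratio being 0.0668 without LPS replicate 1 and 0.186 without replicate 3. B lymphocytes also express Bcl2, and 8 of 9 B cell markers were listed, none at 0 in all libraries. Their summed level was 110 to 135 TPM in WT UT, 30.9 to 46.0 in WT LPS, 20.4 to 29.3 in cGAS-/- UT and 3.35 to 9.32 in cGAS-/- LPS libraries. The part of such cells in the Bcl2 values was not tested.

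Of the BH3-only genes, Bcl2l11 fell and Bid did not pass. Bcl2l11 encodes BIM, a direct activator of BAX and BAK that is made when growth factor signals are withdrawn. It stood at 6.84, 6.75 and 5.60 TPM in WT UT cells and 2.38, 2.39 and 0.191 TPM with LPS. Levels in cGAS-/- cells were 7.95, 7.68 and 8.54 TPM without LPS and 1.78, 1.55 and 1.74 TPM with it. The LPS libraries of both genotypes lay below every UT library, with WT LPS replicate 3 lowest. The log2 fold change was -1.63 (SE 0.34, limma adjusted p = 0.00620) in WT and -1.75 (SE 0.34, adjusted p = 0.00550) in cGAS-/- cells. Without replicate 3 the WT value was -1.12 (adjusted p = 8.39e-05). Relative to the median of all genes the falls were -1.16 and -1.55. The WT call was lost when the fit held only the WT libraries (adjusted p = 0.0941), and the cGAS-/- call with a pseudocount of 0.1 (adjusted p = 0.0607).

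Bid, which encodes the BH3-only protein cleaved by caspase-8, stood at 3.28, 4.33 and 4.46 TPM in WT UT cells and 3.99, 4.70 and 10.6 TPM with LPS. The cGAS-/- libraries were at 4.16, 5.41 and 6.88 TPM without LPS and 4.05, 3.65 and 3.78 TPM with it. The highest of these 12 values was in WT LPS replicate 3, and the other WT LPS libraries lay among or just above the WT UT ones. In cGAS-/- cells all 3 LPS libraries lay below the UT libraries. The log2 fold changes were 0.47 (SE 0.31, limma adjusted p = 0.259) in WT and -0.41 (SE 0.31, adjusted p = 0.477) in cGAS-/- cells, and 0.10 in WT cells without LPS replicate 3. The cGAS-/- difference passed with sample weights (-0.37, adjusted p = 0.0411).

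The cellular IAPs are neighbours on chromosome 9, Birc2 (cIAP1) at chr9:7818227-7837120 and Birc3 (cIAP2) at chr9:7845790-7873229, both on the minus strand. Birc3 stood at 7.46, 8.51 and 7.22 TPM in WT UT cells and 11.1, 23.5 and 13.6 TPM with LPS. With the knockout it went from 5.57, 6.15 and 5.44 TPM to 35.1, 34.2 and 34.6 TPM. The LPS libraries lay above the UT libraries in both genotypes, and the cGAS-/- LPS libraries above all WT LPS ones. In cGAS-/- cells the rise was 6.06-fold in mean TPM (log2 fold change 2.41, SE 0.26, limma adjusted p = 9.50e-05). In WT cells it was 2.08-fold (0.90, SE 0.26, adjusted p = 0.0260), and 0.98 (adjusted p = 0.0108) without LPS replicate 3. The WT call was lost in 4 of 18 alternatives, namely when any one WT UT library was left out (adjusted p = 0.0610 to 0.0848) and when the fit held only the WT libraries (0.210).

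Birc2 stood at 3.41, 3.12 and 2.96 TPM in WT UT cells and 1.51, 2.91 and 0.572 TPM with LPS. The cGAS-/- libraries stood at 2.19, 2.54 and 3.30 TPM without LPS and 3.06, 3.06 and 3.66 TPM with it. The WT LPS libraries lay below the WT UT ones, replicate 2 only just, and the cGAS-/- groups overlapped. The log2 fold changes were -0.74 (SE 0.29, limma adjusted p = 0.0737) in WT and 0.22 (SE 0.29, adjusted p = 0.716) in cGAS-/- cells. The WT difference passed without LPS replicate 2 (-1.07, adjusted p = 0.00317) and was -0.41 (adjusted p = 0.137) without replicate 3.

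Cflar, which encodes cFLIP, the inactive caspase-8 relative that blocks death receptor signalling, rose in both genotypes. It stood at 3.99, 3.49 and 2.35 TPM in WT UT cells and 9.29, 14.5 and 8.31 TPM with LPS. In cGAS-/- cells it rose from 3.26, 3.84 and 4.09 TPM to 13.3, 12.4 and 12.2 TPM. All LPS libraries were above all UT libraries. The mean rose 3.26-fold in WT (log2 fold change 1.43, SE 0.24, limma adjusted p = 0.00167) and 3.39-fold in cGAS-/- cells (1.53, SE 0.24, adjusted p = 0.00140). Without WT LPS replicate 3 the WT value was 1.58 (adjusted p = 3.27e-04), and with only the WT libraries in the fit the WT call was lost (adjusted p = 0.0678). The difference of the LPS effects was 0.10 with a 95% interval of -0.66 to 0.85, and -0.05 without WT LPS replicate 3.

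**Figure D3:**
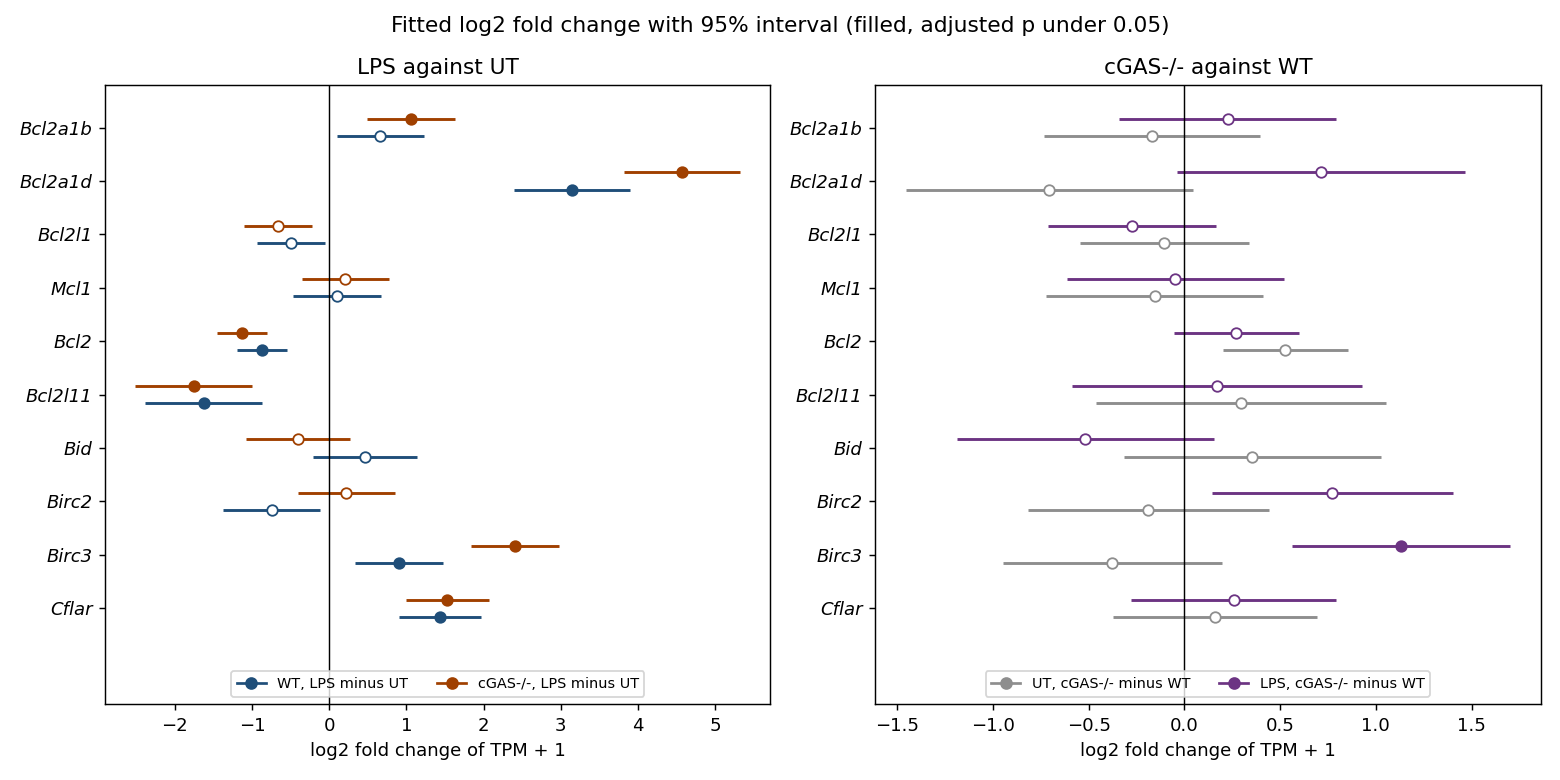
Log2 fold change of TPM + 1 (horizontal axis) for the 10 genes, LPS minus UT in each genotype on the left and cGAS-/- minus WT in each treatment on the right. Points are limma estimates from 3 libraries a group, lines their 95% intervals, and filled points have an adjusted p under 0.05. On the left 5 WT and 6 cGAS-/- points are filled, and on the right the single filled point is Birc3 with LPS.

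The comparison of genotypes asked whether loss of cGAS altered these genes in LPS-treated macrophages. Birc3 was the one gene of the 10 that passed, higher in cGAS-/- cells by a log2 fold change of 1.13 (SE 0.26, limma adjusted p = 0.0493, 2.16-fold in mean TPM), where 2.36% of all genes tested were called (1.36% higher, 1.00% lower), or 8.28% (3.84% higher, 4.44% lower) without WT LPS replicate 3. The call sat at the threshold and was lost in 14 of 18 alternatives, with values from 0.92 to 1.43 in all of them. It was 1.05 (adjusted p = 0.0249) without WT LPS replicate 3, 1.43 (adjusted p = 8.35e-04) without replicate 2 and 0.92 (adjusted p = 0.0798) without replicate 1. Relative to the median of all genes in this comparison, 0.20, the difference was 0.93. With TMM factors, which moved that median to 0.13, it was 0.95 (adjusted p = 0.0245). With only the 6 LPS libraries in the fit the adjusted p was 0.555.

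For the other 9 genes no difference with LPS passed the limma test. The groups did not overlap for 5 of the 10 (4 higher in cGAS-/- cells and 1 lower), against 17.7% of all genes tested (12.6% and 5.17%). Birc2 was higher by 0.77 (SE 0.29, adjusted p = 0.198), and by 1.10 (adjusted p = 0.00664) without WT LPS replicate 2 and 0.44 (adjusted p = 0.223) without replicate 3. Bcl2a1d was higher by 0.71 (SE 0.34, adjusted p = 0.283) and Bcl2 by 0.27 (SE 0.15, adjusted p = 0.336). Bcl2a1b differed by 0.23 (adjusted p = 0.627), by 0.52 (adjusted p = 0.0130) without WT LPS replicate 3 and by -0.0059 without replicate 2, so leaving out these libraries moved it in opposite directions. Bcl2l1 was at -0.27, Bid at -0.52, Cflar at 0.26, Bcl2l11 at 0.17 and Mcl1 at -0.05, with adjusted p from 0.364 to 0.935. Their 95% intervals were -0.71 to 0.17 for Bcl2l1, -1.19 to 0.15 for Bid, -0.28 to 0.79 for Cflar, -0.59 to 0.93 for Bcl2l11 and -0.61 to 0.52 for Mcl1, so each held 0. Without WT LPS replicate 3 the values were -0.15 for Bid, 0.11 for Cflar, -0.33 for Bcl2l11 and -0.29 for Mcl1, none of which passed. The sum of the 3 A1 copies differed by 0.41 (limma adjusted p = 0.393), by 0.17 (adjusted p = 0.575) without WT LPS replicate 2 and by 0.71 (adjusted p = 0.00263) without replicate 3, the one of 18 alternatives in which it passed.

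In UT cells 0 of the 10 passed the limma test between genotypes, where 1.83% of all genes were called (5.33% without WT LPS replicate 3), and 1 had an unadjusted p under 0.05, against 8.08% of all genes. That gene was Bcl2, higher in cGAS-/- cells by a log2 fold change of 0.53 (SE 0.15, adjusted p = 0.149, 1.84-fold in mean TPM), with no overlap between the groups. It passed with sample weights (adjusted p = 0.00360), with only the 6 UT libraries in the fit (0.0365) and without WT LPS replicate 3 (0.0355), which enters this comparison only through the shared spread. The summed B cell markers above also differed between these groups, as did neutrophil markers (173 to 243 TPM in WT UT, 85.8 to 157 TPM in cGAS-/- UT), and their part in this value was not tested. Birc3 differed by -0.38 (SE 0.26, adjusted p = 1.000), also without overlap, and passed with sample weights (adjusted p = 0.0295) and with only the UT libraries (0.0497). In all, 5 of the 10 had groups that did not overlap (2 higher, 3 lower), against 30.5% of all genes (12.1% and 18.4%).

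The difference of the LPS effects between genotypes (the interaction term) passed for 0 of the 10 genes by limma, where 0.900% of all genes were called (4.56% without WT LPS replicate 3), and 3 had an unadjusted p under 0.05, against 11.1% of all genes. Those 3 were Birc3 at 1.51 (SE 0.37, adjusted p = 0.103), Bcl2a1d at 1.42 (SE 0.48, adjusted p = 0.286) and Birc2 at 0.96 (SE 0.40, adjusted p = 0.413), each with a larger LPS minus UT value in cGAS-/- cells. Birc3 passed with sample weights (1.62, adjusted p = 0.00903) and without WT LPS replicate 2 (1.80, adjusted p = 0.00247) or replicate 3 (1.43, adjusted p = 0.0359). Birc2 passed without WT LPS replicate 2 (1.29, adjusted p = 0.0248) and was 0.63 (adjusted p = 0.265) without replicate 3, and Bcl2a1b passed without replicate 3 (0.69, adjusted p = 0.0234). For the sum of the A1 copies the term was 0.59 (limma adjusted p = 0.592), 0.36 (adjusted p = 0.417) without replicate 2 and 0.90 (adjusted p = 0.00594) without replicate 3, and it also passed with sample weights (0.79, adjusted p = 0.0341). These tests and the genotype comparison with LPS share their LPS libraries and are not independent of each other.

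Around the 10 genes, 69 further genes of the same pathways had been listed, of which 45 were in the table and 41 passed the filter. Of these Bmf, Birc5 and Dffb passed it through the UT libraries, reaching the minimum in all 6 of them and in at most 2 LPS libraries, so the filter itself favoured a lower LPS level for them. Many of the rest lie on chromosomes past the point at which the table stops and were not analysed here. With LPS, 16 of the 41 were called in WT cells (6 higher, 10 lower), where 27.6% of all genes were called (4.31% higher, 23.3% lower), and 12 in cGAS-/- cells (8 higher, 4 lower), against 13.8% (4.76% higher, 9.06% lower). The median log2 fold change of the 41 was -0.44 and -0.15, near the -0.46 and -0.20 of all genes. Without WT LPS replicate 3 the counts were 22 and 19, against 34.7% and 30.8% of all genes.

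Within the TNF receptor and death receptor arm, 4 of 14 genes rose in WT and 6 of 14 in cGAS-/- cells, and 0 fell in either, where 4.31% and 4.76% of all genes were called higher and 23.3% and 9.06% lower. Without WT LPS replicate 3, 6 rose in WT and 7 in cGAS-/- cells and 1, Fadd, the adaptor of the death receptors, fell in each, where 8.26% and 9.19% of all genes were called higher and 26.5% and 21.6% lower. Traf1, a binding partner of TRAF2 and the cIAPs, rose by 1.76 (limma adjusted p = 0.00132) and 2.93 (5.11e-05). Traf2, the adaptor that brings cIAPs to the receptor, rose by 1.35 (0.90 without WT LPS replicate 3) and 1.14, and Tnfaip3, which encodes the ubiquitin editor A20, by 1.11 and 1.35. Mlkl, the effector of necroptosis, rose by 2.27 and 2.50. Tnfrsf1b, which encodes TNF receptor 2, and Tnip1, an A20 partner, passed in cGAS-/- cells (1.74 and 2.12) and had values of 1.00 and 0.74 in WT cells. Both passed in WT cells without LPS replicate 3, at 1.45 (limma adjusted p = 4.95e-04) and 1.26 (adjusted p = 7.32e-04). The Traf2 call in cGAS-/- cells (adjusted p = 0.0487) was lost in 12 of 18 alternatives. Xaf1, an interferon-induced antagonist of XIAP, rose by 2.52 and 3.24, and of the other IAP antagonists neither Diablo nor Htra2 passed in either genotype, although Htra2 passed in cGAS-/- cells without WT LPS replicate 3 (-0.33, adjusted p = 0.0429).

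Of the 2 further BH3-only genes tested, both fell in WT cells and 1 in cGAS-/- cells, where 23.3% and 9.06% of all genes were called lower. Bbc3, which encodes PUMA, fell in WT cells (-1.62, limma adjusted p = 0.00972) and had -0.56 in cGAS-/- cells, and Bmf, which passed the filter through its UT libraries, fell in both (-0.79 and -0.74), the latter call lost in 8 of 18 alternatives. Of 6 apoptosome and caspase genes 0 passed in either genotype by limma, with 0 and 1 at an unadjusted p under 0.05, against 42.3% and 24.9% of all genes. When WT LPS replicate 3 was left out, 1 rose and 1 fell in each genotype, where 34.7% and 30.8% of all genes were called. Cycs, the cytochrome c gene, rose in both (1.30 and 1.13), Casp2 fell in WT (-0.60) and Casp6 in cGAS-/- cells (-0.75). Parp1, a DNA repair enzyme cleaved by caspases, fell in both genotypes (-1.70 and -0.94), the latter call lost in 6 of 18 alternatives. The co-chaperone gene Bag3 fell in each (-1.14 and -1.14), and Bag4 and Akt1 fell in WT cells (-1.31 and -1.29), with Akt1 lost in 4 of 18 alternatives. Without WT LPS replicate 3, Akt1 was at -0.86 (limma adjusted p = 0.00453) in WT cells. Bag4, at -0.68 in cGAS-/- cells (limma adjusted p = 0.109), passed there without that library (adjusted p = 0.00971).

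Birc5 encodes survivin, an IAP family protein that works mainly in mitosis. It stood at 13.9, 17.5 and 18.6 TPM in WT UT cells and 2.61, 2.51 and 2.36 TPM in cGAS-/- UT cells, with LPS levels of 1.03, 0.575 and 0.285 TPM in WT and 0.264, 0.484 and 0.235 TPM in cGAS-/- cells. UT libraries of the genotypes did not overlap, and each LPS group was below its UT group. Birc5 was lower in cGAS-/- than in WT UT cells by a log2 fold change of -2.33 (SE 0.21, limma adjusted p = 2.06e-04), the 1 pathway gene of 41 called there, against 1.83% of all genes. Xaf1 (-0.85) and Traf1 (-0.85) were called as well without WT LPS replicate 3, making 3 of 41 against 5.33% of all genes. With LPS it changed by -3.45 in WT and by -1.40 in cGAS-/- cells, having passed the filter through its UT libraries. With LPS the genotypes differed by -0.28 (adjusted p = 0.463), and by -0.44 (adjusted p = 0.151) without WT LPS replicate 3. At these LPS levels the added 1 compresses differences. In that comparison 0 of the 41 were called by limma, with 6 at an unadjusted p under 0.05, against 18.8% of all genes, and Bcl2a1a (1.26) and Xaf1 (-0.86) were called without replicate 3, against 8.28%. Dividing cells of any kind express Birc5, and the summed B cell markers also were highest in WT UT libraries. The summed neutrophil markers were at 173 to 243 TPM in WT UT and 85.8 to 157 TPM in cGAS-/- UT libraries. Among them Ngp, a granule protein gene of neutrophil precursors, was at 26.3, 32.3 and 24.1 TPM against 0.657, 2.22 and 3.13 TPM, and Elane at 0.774, 0.844 and 0.945 TPM against 0 in all 3. The part of either cell type in the Birc5 values was not tested.

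**Figure D4:**
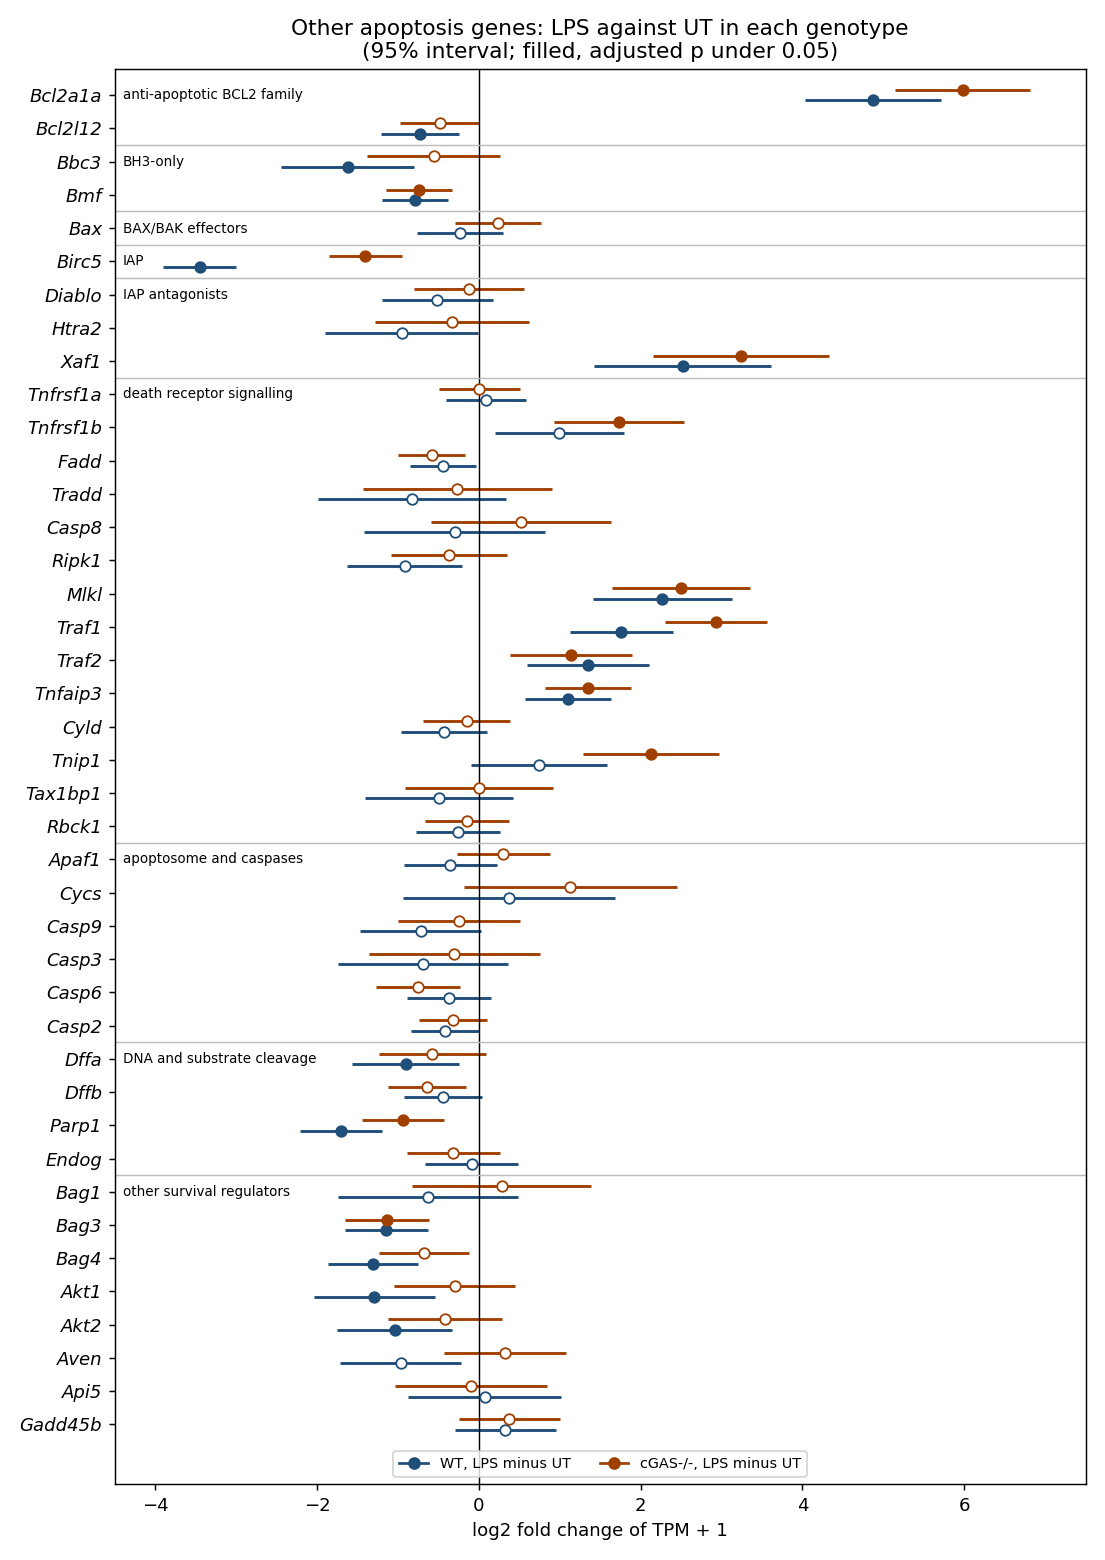
Log2 fold change of TPM + 1 with LPS (horizontal axis) in WT and cGAS-/- cells for the 41 further apoptosis genes that passed the filter, grouped by role. Points are limma estimates from 3 libraries a group, lines their 95% intervals, and filled points have an adjusted p under 0.05. Bcl2a1a, Xaf1, Mlkl and Traf1 lie furthest to the right and Birc5 furthest to the left.

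For each of the 6 genes called with LPS, the tested genes with the most similar course over the 12 libraries were found by the root mean square difference of centred log2(TPM + 1). The closest to Birc3 were Gm32856 (0.225), Hif1a (0.229), the gene of the hypoxia-inducible factor subunit, and Adora2a (0.232), an adenosine receptor gene. Bcl2a1d was followed most closely by Ass1 (0.405), the argininosuccinate synthase gene, Aoah (0.479), an LPS-deacylating enzyme gene, and Gm48377 (0.491). The nearest to Cflar were Gm42763 (0.163), Orai2 (0.226) and Pid1 (0.241), and to Bcl2a1b Pgam1-ps2 (0.169), Manf (0.189) and Denr (0.192). Bcl2l11 was nearest to Tpra1 (0.161), Dnajb14 (0.164) and Rtn4 (0.199), and Bcl2 to Apbb2 (0.128), 2900026A02Rik (0.128) and Soga1 (0.147). The 12 points share 4 group means, so these distances describe the libraries and carry no test.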

How the data were processed

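Strand-specific, paired-end RNA-seq was made from 12 BMDM samples, 3 in each of 4 groups (WT or cGAS-/-, UT or LPS). The authors aligned the reads by STAR to the GRCm39 genome, counted them by Kallisto and tested groups by edgeR and limma, per the methods. The submitters' processing notes also name fastp. Versions are not given in the sources used here. The extraction text of the labels names neutrophils, where all other labels name macrophages. The deposited values were taken, from the values themselves, as TPM averaged over the transcripts of a symbol. Read depth is unknown, so intervals for counting error are not given. The table stops on chromosome 13, and genes past that point were not analysed here.

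The 10 genes and the lists were chosen with earlier results of these data known. The filter kept 11887 genes with at least 1 TPM in at least 3 samples (each sample rescaled to 1000000 for this step only). On log2(TPM + 1), a scale that understates changes of low genes, limma 3.58.1 (R 4.3.3) fitted the 4 group means over all 12 samples, with variances moderated along a trend. The fit was run on simulated data with the same spread in all groups, which cannot test whether the groups share a spread. A gene was called when its p, adjusted by Benjamini-Hochberg over all genes tested, was under 0.05. The text names all 10 genes, the called pathway genes with the largest change (at most 12 a comparison), the Bcl2a1 copies and the 3 nearest genes of each member called with LPS. Fadd, Diablo, Htra2, Cycs, Casp2 and Casp6 were named in addition, after their values were seen, as were single cell type markers. Alternatives were a pseudocount of 0.1, no filter, TMM factors, only the samples compared, limma sample weights, the replicate number as a block, each sample left out, and, added after the data were seen, the sum of Bcl2a1a, Bcl2a1b and Bcl2a1d under each of these. Sequences came from the GRCm39 genome with GENCODE annotation, and copies were compared with blastn 2.17.0.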

Additional observations from a re-analysis of the deposited data

Results flagged for a closer look

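The interaction term of Birc5 (survivin), the difference of its LPS effects between genotypes, passed the limma test. The log2 fold change with LPS was -3.45 in WT and -1.40 in cGAS-/- cells, and the interaction term was 2.05 (SE 0.29, limma adjusted p = 0.00747). Its direction was the same in all 17 alternatives, and the call was lost with a pseudocount of 0.1 (adjusted p = 0.270). With LPS all 6 libraries were at or below 1.03 TPM, and the UT levels, 13.9 to 18.6 TPM in WT and 2.36 to 2.61 TPM in cGAS-/- cells, did not overlap. The term is the genotype difference with LPS (-0.28) minus that in UT cells (-2.33), so nearly all of it is the UT difference. Because the LPS levels are near the bottom of the log2(TPM + 1) scale, it does not show that LPS acted differently in the genotypes. Birc5 also passed the filter on low values through its UT libraries.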

How the results depend on the processing

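With LPS, the count of the 10 genes called between genotypes went from 1 to 0 with a pseudocount of 0.1, with no filter, with only the samples compared and with the replicate block, and ranged from 0 to 2 when one library was left out (2 without WT LPS replicate 2 or 3). In UT cells it went from 0 to 2 with only the samples compared or with sample weights, and from 0 to 1 over libraries left out. For LPS against UT in WT cells the count of 5 fell to 2 with only the samples compared and ranged from 4 to 8 (8 without WT LPS replicate 2), and in cGAS-/- cells the count of 6 ranged from 5 to 7 over libraries left out and was 8 with only the samples compared and 9 with sample weights. The interaction count went from 0 to 1 with sample weights and from 0 to 2 over libraries left out. Calls among all 11887 genes moved too. Between genotypes with LPS they were 3312 without WT LPS replicate 2 and 984 without replicate 3. In UT cells they were 1241 with only the samples compared and 1369 with sample weights. In cGAS-/- cells LPS gave 5305 with only the samples compared and 5746 with sample weights, and in WT cells 5785 without LPS replicate 2. The interaction gave 292 with sample weights and 1496 and 542 without WT LPS replicate 2 and 3. Some values of the 10 genes turned sign, and none of them passed in that setting. With TMM factors these were Bcl2l1 with LPS in WT cells (0.028) and, in the interaction, Mcl1 (-0.17) and Cflar (-0.14). With sample weights it was Bcl2l11 between genotypes with LPS (-0.23), and with a pseudocount of 0.1 Bcl2 (0.26) and Bcl2l11 (0.22) in the interaction. Over libraries left out, values between genotypes with LPS ranged from -0.0059 to 0.52 for Bcl2a1b, from -0.29 to 0.23 for Mcl1 and from -0.33 to 0.42 for Bcl2l11, and that of Cflar in UT cells from -0.0066 to 0.28. Mcl1 with LPS in WT cells ranged from -0.18 to 0.34, and in the interaction Mcl1 ranged from -0.13 to 0.39, Bcl2l11 from -0.63 to 0.13 and Cflar from -0.049 to 0.32. The cause was not tested. The LPS calls of Bcl2a1d and Bcl2 in both genotypes, and of Birc3 and Cflar in cGAS-/- cells, were kept in every alternative run, Bcl2 having passed the filter through its UT libraries alone.

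The replicate numbers share no stated source. Deviations of same-numbered libraries correlated at -0.031 to 0.038 over 18 pairs and those of others at -0.064 to 0.051 over 36, so the pairing was not used. With the replicate block, 0, 0, 5, 6 and 0 of the 10 genes were called (in the order above) in place of 1, 0, 5, 6 and 0. Among all genes, calls between genotypes with LPS ranged from 5 with only the samples compared to 3312 without WT LPS replicate 2, around 281, and those of LPS in WT cells from 716 to 5785 under the same alternatives, around 3286. In UT cells they ranged from 92 to 1369 around 218, in LPS-treated cGAS-/- cells against UT from 1020 to 5746 around 1643, and for the interaction from 32 to 1496 around 107.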
